A study of Drosophila melanogaster with 24 samples.

Results

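The comparison described here sets open chromatin of wing discs from the H3.3 double mutant, labelled H3.3-K9R, against that of discs from the H3.3A null, labelled H3.3A-null. Its members are all 19738 genomic regions of the authors' deposited table for this pair of genotypes, and the same 19738 regions fill every deposited FAIRE table. Both genotypes lack H3.3A. The double mutant also carries a K9R substitution, lysine 9 to arginine, at the endogenous H3.3B gene, so the comparison asks what the substitution does to accessible DNA when H3.3B is the only source of H3.3. The K9R effect in the presence of H3.3A comes from H3.3B-K9R discs over wild-type yw discs (WT), a pair that shares no library with the first. All 4 genotypes were assayed by FAIRE-seq in imaginal wing discs of wandering 3rd instar larvae, with 3 libraries each. The labels do not say whether the libraries of a genotype came from separate cultures, so p-values here measure the spread between libraries, which may be technical. The canonical histone genes are not described as altered in any of these 4 genotypes. RNA-seq, used below for a side-by-side description, came from whole 1st instar larvae, with 3 libraries of H3.3-K9R_H3.2-HWT and 3 of HWT; in both, a 12x array of normal canonical histone genes replaces the deleted endogenous ones, and the first of them also has the H3.3A null and H3.3B K9R alleles.

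H3.3 is a histone H3 variant that can be placed in chromatin outside DNA replication, and in Drosophila 2 genes, His3.3A and His3.3B, encode the same protein. Methylated lysine 9 of H3 is the mark that HP1 binds in heterochromatin, the compact, repeat-rich chromatin around centromeres, at telomeres, on the Y chromosome and on much of chromosome 4. Arginine cannot be methylated or acetylated as lysine is, so a K9R protein cannot carry the mark. FAIRE (formaldehyde-assisted isolation of regulatory elements) recovers DNA that is not bound up in nucleosomes and therefore marks promoters, enhancers and other accessible sites. A FAIRE count also follows the number of copies of a sequence, and the tables do not tell openness and copy number apart.

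The regions had a median length of 312 bases, from 98 to 16094, and a median mean normalised count over all libraries of 85.9, from 3.74 to 24771. All 38 wing selector and patterning genes listed as markers of this tissue had at least 1 region, among them 8 regions at vg, the wing selector gene, 8 at nub and 7 at ap. Of the haemocyte genes, 9 of 13 had no region, Hml and eater among them, and 9 of 11 fat body genes had none, among them Lsp2 and Fbp1. All 13 eye, leg and antennal disc genes had at least 1 region too, so the full share of the wing list does not set wing discs apart from other discs. Regions were also found at 9 of 10 annotated tracheal genes and at 10 of 16 muscle precursor genes, with 17 regions at twi. Since FAIRE shows accessible DNA and not transcripts, a region is weaker evidence for a cell type than an RNA would be.

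The mutated genes were checked first. In the authors' deposited tables the region over His3.3A (chr2L:5055001-5055291, dm6) had a log2 fold change of -1.66 in the double mutant over WT and -1.31 in the H3.3A null over WT, and the double mutant over the H3.3A null stood at -0.35 ± 0.21 (SE; adjusted p = 0.64, DESeq2 Wald test with Benjamini-Hochberg adjustment). The signal there was thus low in both genotypes that lack H3.3A, while H3.3B-K9R discs had 0.23 over WT in the authors' deposited table. At His3.3B (chrX:9152523-9156669), where the allele is a substitution, the 4 regions had log2 fold changes between -0.07 and 0.18 in the authors' deposited table and none was called, so the region level neither checks nor contradicts that allele.

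FAIRE signal changed at 1282 of 19733 regions with an adjusted p (6.50%), at an adjusted p under 0.05 in the authors' DESeq2 test. Signal was higher in the double mutant at 732 regions (3.71%) and lower at 550 (2.79%). The median log2 fold change was 0.75 among the higher regions, -0.75 among the lower and 0.00 over all regions tested, with 188 higher regions at 1 or more and 127 lower regions at -1 or less. Log2 fold changes ran from -2.97 to 3.69, with a median standard error of 0.16. At the edge of the threshold, the authors' deposited table gives a region at Vps24 on 3R at -0.39 ± 0.13 (adjusted p = 0.048) just inside and one at Cyp6a8 on 2R at -0.48 ± 0.16 (adjusted p = 0.0507) just outside (DESeq2). When the regions were split into 5 groups by mean count, the highest had 14.6% called and the other 4 groups between 4.00% and 4.74%.

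Most of the calls lay outside the gene-rich arms of the autosomes. On 2R, 3L and 3R outside pericentromeric sequence, 107 of 10438 regions were called (1.03%), or 47 with p-values adjusted over these arms alone, and on the 2L arm 9 of 2924 (0.308%). On the X arm 351 of 3414 were called (10.3%), 239 of them higher. Pericentromeric sequence had 274 of 1362 (20.1%), 212 of them higher, but the X carried much of this. The pericentromeric X had 124 of 187 called (66.3%), 109 of them higher. By contrast 3L had 64 of 330 (19.4%), 35 higher and 29 lower, 2R had 41 of 387 (10.6%), 3R 37 of 358 (10.3%) and 2L 8 of 100. With the boundaries 1 Mb nearer the centromere, which leaves no X region in the class, its share was 12.0%. Chromosome 4, a small and largely heterochromatic chromosome, had 26 of 100 called, 25 of them lower. Unplaced scaffolds, the Y and its scaffolds together had 511 of 1487 called (34.4%), 234 higher and 277 lower. On the mitochondrial genome 4 of 8 regions were lower. Within the arms, 282 of 3636 regions between genes were called (7.76%), against 185 of 13140 that overlapped a gene (1.41%).

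**Figure D1:**
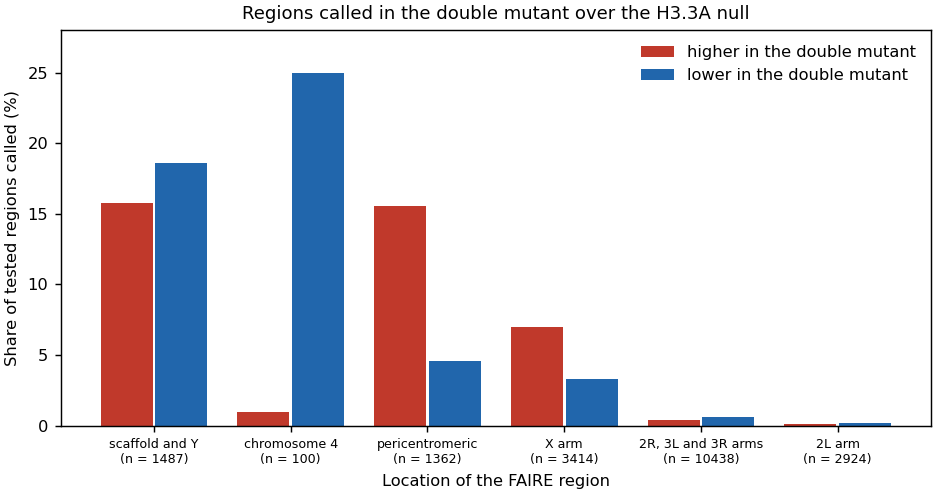
Share of tested regions called higher (red) and lower (blue) in the double mutant over the H3.3A null, in percent, by location of the region, with the number tested under each. Calls on chromosome 4 are nearly all lower, those in pericentromeric sequence mostly higher, and both bars on the autosomal arms lie near 0.

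Along the X the calls gathered at its ends. From 21 Mb to the centromeric end 309 of 640 regions were called (48.3%), 281 higher and 28 lower. In the first 1 Mb, at the telomeric end, 50 of 178 were called (28.1%), 49 of them lower. Between these, 116 of 2783 were called (4.17%). The bin of 1 Mb centred on His3.3B, the gene at which the 2 genotypes differ, had 4 of 132 regions called (3.03%), and the bin centred on His3.3A on 2L had 3 of 145 (2.07%), a run at CG15628 (chr2L:4820714-4822056) with a median of -0.81. Telomeric ends of other chromosomes varied. In the last 100 kb, 19 of 27 regions of chromosome 4 were called, all lower, and 6 of 22 on 2R, 5 of them lower, while between 1 and 2 regions were called on 2L, 3L and 3R.

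**Figure D2:**
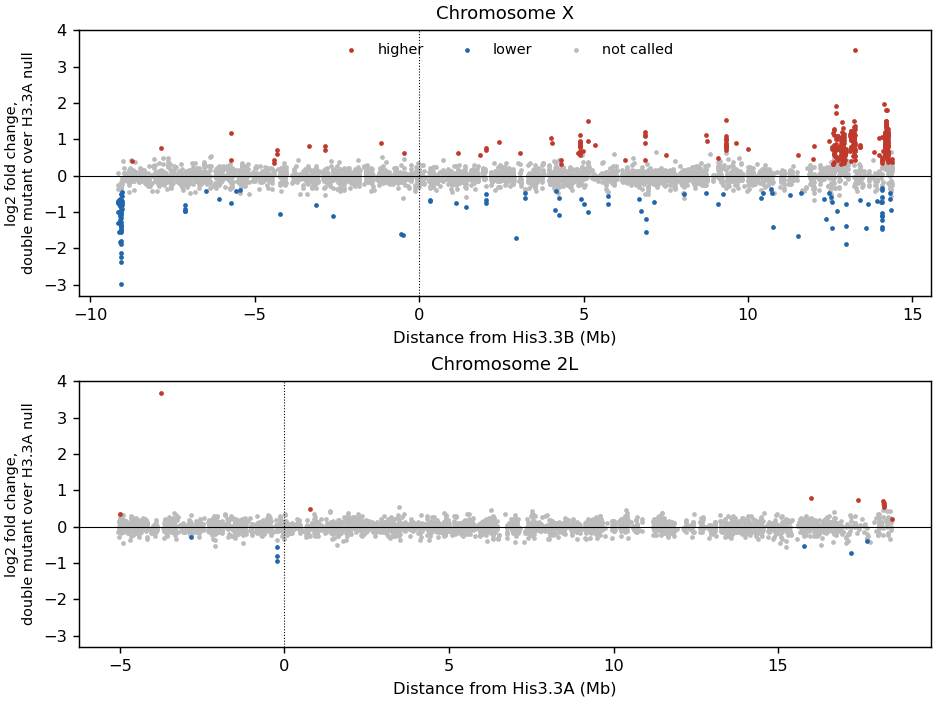
Log2 fold change of the double mutant over the H3.3A null for every tested region of chromosome X (top, by distance in Mb from His3.3B) and 2L (bottom, by distance in Mb from His3.3A), with called regions in red (higher) and blue (lower) and the rest in grey. Called regions pile up at both ends of the X and are few on 2L.

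Called regions also came in runs. When called regions of 1 direction no more than 20 kb apart were counted as a run, a description drawn up after the values were seen, the 1282 regions formed 585 runs, 275 higher and 310 lower. Of these, 76 held 3 or more regions and together 51.1% of all called regions, and 16 held 10 or more. In the following the runs are grouped by which genotype stood away from WT. The values over WT share their libraries with the main comparison, and the log2 fold change of the double mutant over the H3.3A null is exactly the difference of the values of the 2 genotypes over WT, so they are given side by side as a description.

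In 1 group of runs the double mutant lay near WT and the H3.3A null away from it. The run with the most called regions, chrX:23312111-23426655 (dm6), had 98 of its 109 regions higher in the double mutant, from 0.38 to 1.82. The annotated genes nearest to these regions were 2SrRNA:CR45864 and mir-10404-5, but not close by. For example, chrX:23343229-23348142 lay 51500 bases from 2SrRNA:CR45864 and chrX:23386977-23387428 lay 95248 bases from it. The called regions of this run had a median of -0.05 in the double mutant and -1.06 in the H3.3A null, both over WT. Elsewhere on the pericentromeric X, at the rRNA pseudogenes 18SrRNA-Psi:CR41602 and 28SrRNA-Psi:CR45859 (chrX:23212808-23228889), 11 of 13 regions fell, with medians of 0.03 in the double mutant and 0.90 in the H3.3A null over WT. Ribosomal DNA is a tandem array of many near-identical copies, and no source used here states how reads that match several places were handled.

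The H3.3A null was also the one further from WT at loci elsewhere. On 2R, 8 of 8 regions over 7.59 kb of sequence (chr2R:5049137-5056726), whose nearest gene is TpnC41C, a troponin C, rose in the double mutant, with log2 fold changes from 1.35 to 3.41 over the H3.3A null. Their medians over WT were -0.24 in the double mutant and -2.53 in the H3.3A null. The Stellate cluster at chrX:14046683-14061428, tandem genes whose products form crystals in testes when not silenced, had 13 of 13 regions higher, between 0.56 and 1.12, with medians of 0.26 in the double mutant and -0.63 in the H3.3A null over WT. On 3L, the nearest genes of a run were CR12460 and nvd, which encodes the oxygenase for the first step of ecdysone synthesis. In it 10 of 12 regions were higher (chr3L:24464089-24470641), with medians of 0.01 in the double mutant and -0.89 in the H3.3A null over WT.

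Lower runs of this kind lay at or near genes of known function. At ry, the xanthine dehydrogenase gene behind the rosy eye colour, and its neighbour CG7966 (chr3R:13032279-13051634), 10 of 12 regions fell, with log2 fold changes from -1.04 to -0.60. The medians there were -0.04 in the double mutant, 0.81 in the H3.3A null and -0.15 in H3.3B-K9R discs, each over WT. The nearest genes of another run were CkIIalpha, the catalytic subunit of casein kinase 2, and CG33217. All 6 of its 6 regions were lower (chr3L:23112811-23117124, median -1.23), with medians of 0.21 in the double mutant and 1.48 in the H3.3A null. Near UQCR-11, a gene of respiratory complex III, 6 of 6 regions were lower (chr3L:25129956-25134911, median -1.20), with medians of 0.24 in the double mutant and 1.46 in the H3.3A null. At east, which encodes a protein of the nuclear interior, 4 of 7 overlapping regions fell, and the median over WT of the 7 was 0.09 in the double mutant and 0.74 in the H3.3A null.

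Other runs had the double mutant away from WT and the H3.3A null nearer to it, several of them in the X from 21 Mb on. In a stretch between lncRNA:flam and CG40813 (chrX:21937788-22139444), 81 of 160 regions were higher, with medians over WT of 1.01 in the double mutant, 0.34 in the H3.3A null and 1.01 in H3.3B-K9R discs. Near CG14621 (chrX:22353557-22414901) 34 of 41 regions were higher, with medians of 0.89 in the double mutant, -0.09 in the H3.3A null and 0.75 in H3.3B-K9R discs. Near CG41562 (chrX:22257689-22282674) all 17 regions were higher, with medians of 0.88, -0.17 and 0.71 in the double mutant, H3.3A null and H3.3B-K9R discs. Within the arm, 13 of 14 regions at CG32547, Hayan and psh were higher (chrX:18475627-18487012), with medians of 0.88 in the double mutant, -0.05 in the H3.3A null and 0.82 in H3.3B-K9R discs. Hayan and psh encode serine proteases upstream of Toll signalling.

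The flamenco locus, lncRNA:flam (chrX:21631891-21790731), is the source of piRNAs that silence gypsy-type retrotransposons in the somatic cells of the ovary. Of its 61 regions 16 were higher and 3 lower in the double mutant over the H3.3A null, with a median of 0.18. The same regions had medians over WT of 0.79 in the double mutant, 0.51 in the H3.3A null and 0.57 in H3.3B-K9R discs. One region inside it went the other way: chrX:21711449-21714438 had -1.44 ± 0.08 in the authors' deposited table (adjusted p = 1.3e-73, DESeq2), with 2.72 in the double mutant and 4.17 in the H3.3A null over WT. Both genotypes without H3.3A were thus far above WT there, and H3.3B-K9R discs had 0.26 in the authors' deposited table.

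Long lower runs also lay at the ends of chromosome 4 and the X. At the end of chromosome 4 (chr4:1280372-1313900, nearest gene Cadps) 18 of 22 regions fell, with log2 fold changes from -2.73 to -0.61. The medians over WT were -1.43 in the double mutant, 0.31 in the H3.3A null and -0.13 in H3.3B-K9R discs. The last median hides changes of both signs. Of the 18 regions, 10 were called in H3.3B-K9R discs over WT, and the values there ran from -0.95 to 1.82. Near the end of the X (chrX:50847-124172) 41 of 53 regions fell, with a median of -1.06 against the H3.3A null and medians over WT of -0.17 in the double mutant, 0.65 in the H3.3A null and 0.32 in H3.3B-K9R discs. The regions of this run differed in which genotype departed from WT. The lowest fold in the whole table, chrX:85470-85931, nearest to lncRNA:CR40469, was -2.97 ± 0.22 over the H3.3A null (adjusted p = 2.7e-39, DESeq2), with -0.91 in the double mutant and 2.06 in the H3.3A null over WT in the authors' deposited tables. Close by, chrX:86448-87778 had -1.76 in the double mutant, 0.36 in the H3.3A null and -0.24 in H3.3B-K9R discs, each over WT in the authors' deposited tables. At the very end of the X (chrX:768-11499) 8 of 9 regions were lower in the double mutant, with a median of -0.77 over the H3.3A null and medians over WT of 0.81 in the double mutant, 1.64 in the H3.3A null and 1.51 in H3.3B-K9R discs.

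**Figure D3:**
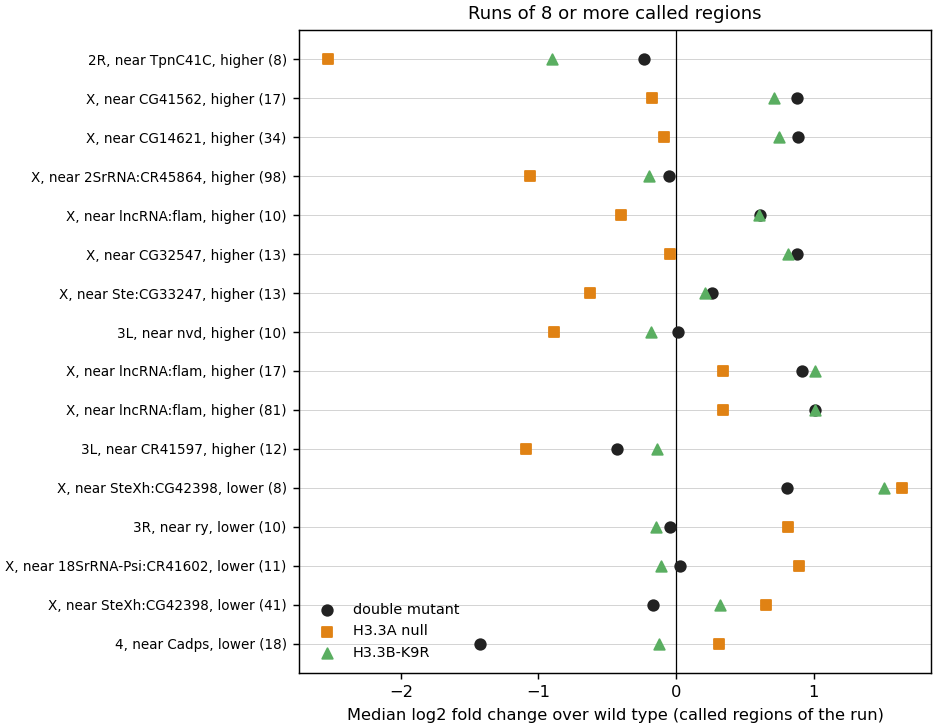
Median log2 fold change over WT of the called regions in each run of 8 or more on the assembled chromosomes, in the double mutant (black circles), the H3.3A null (orange squares) and H3.3B-K9R discs (green triangles), ordered by the double mutant over the H3.3A null, with the nearest gene, direction and number of called regions at the left. In the run near 2SrRNA:CR45864 the double mutant lies near 0 and the H3.3A null at -1.06. In the run near CG14621 the double mutant and H3.3B-K9R lie close together above 0. In the run near Cadps the median is -1.43 in the double mutant and -0.13 in H3.3B-K9R, where single regions changed in both directions.

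Counts by class of location take in the regions of the runs above, so they describe the same values again. The run chrX:23312111-23426655 held 98 of the 124 called regions of the pericentromeric X, and the run near Cadps 18 of the 26 on chromosome 4. Among called pericentromeric regions the H3.3A null lay further from WT than the double mutant in 235 of 274, 118 of them on the X, with a median absolute log2 fold change over WT of 0.18 in the double mutant and 0.85 in the H3.3A null. On the X arm the double mutant lay further from WT in 240 of 351 called regions, with medians of 0.82 in the double mutant and 0.36 in the H3.3A null. On chromosome 4 it did so in 18 of 26, with medians of 0.74 in the double mutant and 0.38 in the H3.3A null. Over all called regions the H3.3A null was further from WT in 673 and the double mutant in 609.

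Of the single regions, chr2L:1301755-1302313, 5159 bases from robo3, which encodes an axon guidance receptor, rose most of all called regions, by 3.69 ± 0.20 on the log2 scale in the authors' deposited table (adjusted p = 1.9e-74, DESeq2). Over WT it had -0.36 in the double mutant, -4.04 in the H3.3A null and -1.33 in H3.3B-K9R discs in the authors' deposited tables, so both single mutants lay below WT and the double mutant lay closest to it. On 3L a region inside lovit, a gene for a histamine transporter of photoreceptors (chr3L:25287238-25291580), fell by 1.21 ± 0.08 (adjusted p = 5e-49, DESeq2, the authors' deposited table). It stood at 2.15 in the double mutant and 3.36 in the H3.3A null over WT in the authors' deposited tables. Lone called regions on the arms numbered 117, of which 44 were higher and 73 lower.

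The next question was whether the K9R effect is the same with and without H3.3A. In H3.3B-K9R discs over WT 1288 regions were called (6.53%), close to the number in the double mutant over the H3.3A null, and 575 regions were called in both comparisons, 44.9% of the first list's 1282 and 44.6% of the 1288. Of these 575, 458 changed in the same direction and 117 in opposite ones. The counts differed by location. On the X arm 230 regions were called in both, 199 in the same direction, and 81.8% of the 351 called regions had the same sign in H3.3B-K9R discs. Many of these lay at the base of the X. From 21 Mb on, pericentromeric X included, 179 were called in both, 149 in the same direction. The run chrX:21937788-22139444 alone held 77, and its neighbouring regions are not independent. Between 1 and 21 Mb 46 were called in both, 43 in the same direction, and in the first 1 Mb 28, of which 7 were. In pericentromeric sequence 55 were called in both, 18 in the same direction and 37 in opposite ones. On the pericentromeric X 23 were called in both and all 23 were opposite. These 23 all lay in the single run chrX:23312111-23426655, and the 8 regions of the 2R run near TpnC41C were opposite too. Most of the opposite calls in pericentromeric sequence thus came from 2 loci, whose neighbouring regions are not independent. Over all 19733 regions 51.3% had the same sign. The 2L arm had 9 regions called without H3.3A and 151 with it.

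The difference itself was tested as the log2 fold change of the double mutant over the H3.3A null minus that of H3.3B-K9R over WT, with a two-sided normal p from both standard errors and Benjamini-Hochberg adjustment. The 2 fold changes differed at 957 of 19733 regions (4.85%), with the value without H3.3A more positive at 491 (2.49%) and more negative at 466 (2.36%). This difference also moves wherever WT alone departs from the mutant genotypes. Such a departure cannot be told apart here from a K9R effect that depends on H3.3A. Pericentromeric sequence had 221 such regions of 1362 (16.2%), 110 of them on the X. In the 2R run near TpnC41C, the region chr2R:5049137-5051810 had 3.41 ± 0.12 in the double mutant over the H3.3A null and -1.22 ± 0.10 in H3.3B-K9R over WT in the authors' deposited tables, a difference of 4.63 ± 0.16 (adjusted p = 7e-192). The largest differences in the other direction came from regions at which all 3 mutant genotypes exceeded WT. Inside nAChRalpha3, a nicotinic acetylcholine receptor subunit (chrX:8294268-8296239), the values over WT were 5.89 in the double mutant, 5.97 in the H3.3A null and 6.33 in H3.3B-K9R discs in the authors' deposited tables. The double mutant over the H3.3A null was therefore only -0.07 ± 0.08 and not called (adjusted p = 0.98, DESeq2, the authors' deposited table), and the difference was -6.40 ± 0.19.

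**Figure D4:**
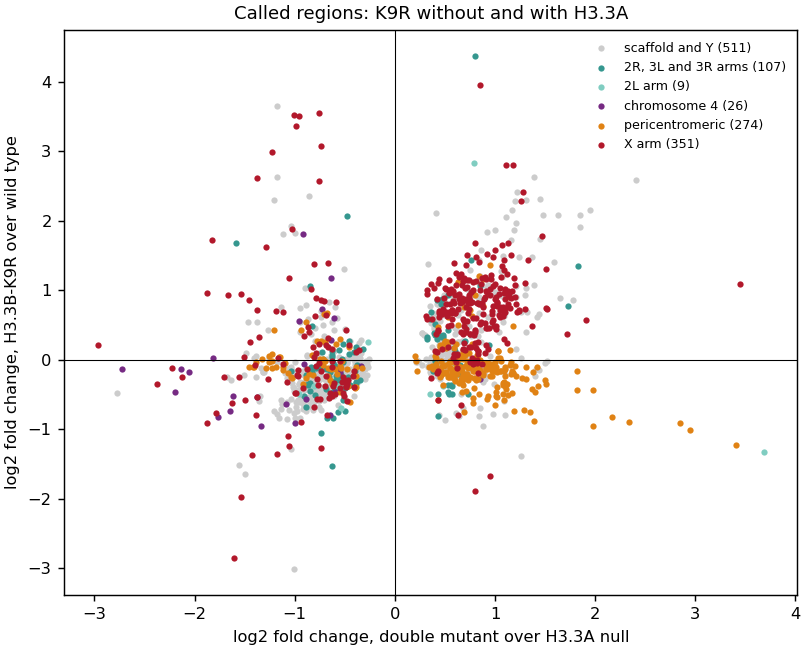
Each called region of the double mutant over the H3.3A null by its log2 fold change there (horizontal) and in H3.3B-K9R over WT (vertical), coloured by location, with the number of regions in the legend; the 4 mitochondrial regions are not drawn. X arm regions gather in the upper right. Pericentromeric ones have vertical medians of -0.15 among the higher and -0.10 among the lower regions, with some well above 0. The orange points furthest to the right have negative values in H3.3B-K9R.

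No region at the listed genes of wing development was called. Of 287 regions at wing selector and patterning genes none was called (median -0.02), and of 390 at wing morphogen and signalling genes none (median -0.01). The share called was 6.50% of all regions and 2.78% of those on the arms. It was only 1.41% of arm regions that overlap a gene and 1.03% on the 2R, 3L and 3R arms. At these lower shares few calls would fall in lists of this size, and whether the lists differ from them was not tested. At an unadjusted p under 0.05 these lists had 4 and 8 regions. Their smallest p-values belonged to a region at inv, a homeobox gene of the posterior compartment, at 0.55 ± 0.21 (adjusted p = 0.097, DESeq2), and one at sog, an extracellular BMP antagonist, at 0.30 ± 0.14 (adjusted p = 0.28), both from the authors' deposited table. None of 59 regions at Hox genes and none of 80 at cell cycle and replication genes was called by DESeq2 either, with 2 and 1 at an unadjusted p under 0.05. Taking all 21 lists, 14 of 1728 regions at listed genes were called (0.81%), beside the 1.41% of arm regions that overlap a gene.

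The lists of chromatin factors are short, and their counts are given as values. The share called was 6.50% over all regions, 2.78% on the arms and 1.41% of arm regions that overlap a gene. None of 25 regions at genes for H3K9 methylation and HP1 factors was called by DESeq2, and none of 33 at germline and piRNA genes, with 1 each at an unadjusted p under 0.05. Of 14 regions assigned to H3.3 genes and histone chaperones 1 was lower, 5661 bases from Caf1-180, the large subunit of the chromatin assembly factor CAF-1 that deposits canonical H3 at replication. It fell by 1.61 ± 0.25 in the authors' deposited table (adjusted p = 2.9e-09, DESeq2), with values over WT of -2.94 in the double mutant, -1.33 in the H3.3A null and -2.85 in H3.3B-K9R discs. With regions limited to 5 kb from a gene the list had none. In the Polycomb and trithorax list 1 of 79 regions was called, at phol, a DNA-binding recruiter of Polycomb complexes. It rose by 0.40 ± 0.11 in the double mutant over the H3.3A null (adjusted p = 0.0071) and by 0.51 in H3.3B-K9R discs over WT (adjusted p = 0.00018), both by the authors' DESeq2 in the authors' deposited tables. None of the 67 regions at the canonical histone genes was called, with 1 at an unadjusted p under 0.05, whereas 30 of the 67 were called in H3.3B-K9R discs over WT. The median of the list in H3.3B-K9R discs over WT was 0.04. The list takes in 113 annotated genes, repeated copies that can share reads, so its regions are not independent. A region at His4:CG33889 had 0.22 ± 0.10 in the double mutant over the H3.3A null (adjusted p = 0.29, DESeq2) and -0.56 in H3.3B-K9R over WT (adjusted p = 1.2e-05) in the authors' deposited tables, and the difference of 0.78 ± 0.15 passed its test (adjusted p = 8.6e-06).

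At heat shock and chaperone genes 4 of 44 regions were called (9.09%). The share was 6.50% over all regions, 2.78% on the arms and 1.09% on the 3R arm, where these 4 lie. All 4 were lower and lay at Hsp70, the inducible cytoplasmic chaperone. In the authors' deposited table Hsp70Bb had -0.74 ± 0.14 (adjusted p = 7e-06, DESeq2). Hsp70Bbb stood at -0.75, Hsp70Ba at -0.72 and Hsp70Ab at -0.46 in the authors' deposited table. Over WT the Hsp70Bb region had -0.18 in the double mutant and 0.57 in the H3.3A null in the authors' deposited tables. These genes are near-identical copies that can share reads, and they lie on 3R, so the 4 regions are not independent. The 15 regions assigned to Hsp70 copies had a median of -0.10.

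In the other lists the shares called lay at or below the 6.50% of all regions. All 3 called regions of the sensory and neural list, of 47 (6.38%), lay at Snap25, a SNARE protein of synaptic vesicle fusion whose gene lies in pericentromeric 3L. They were lower at -0.54, -0.46 and -0.64 in the authors' deposited table. The 14 regions assigned to the gene had a median of -0.12, and the 12 of them that overlap it one of -0.30. The ecdysone list had 1 of 192 regions called, in Eip75B, a nuclear receptor induced by ecdysone, at -0.63 ± 0.14 in the authors' deposited table (adjusted p = 0.00017, DESeq2). It had 0.52 in the double mutant and 1.15 in the H3.3A null over WT in the authors' deposited tables. In the JNK and regeneration list 2 of 88 were called, both beside upd2, a JAK/STAT ligand, at -0.76 and 0.47 in the authors' deposited table. One region of ey, the eye selector gene on chromosome 4, was lower at -0.54 ± 0.15 (adjusted p = 0.0049, DESeq2, the authors' deposited table), and 1 of kirre, a myoblast adhesion molecule, at -0.63 ± 0.21 (adjusted p = 0.044). DESeq2 called no region among 53 at tracheal genes, 39 at apoptosis and DNA damage genes, 41 at cuticle genes, 19 at immune genes, 6 at haemocyte genes or 5 at fat body genes. At an unadjusted p under 0.05 the tracheal list had 3 regions, the apoptosis, haemocyte and fat body lists 1 each, and the cuticle and immune lists 0.

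**Figure D5:**
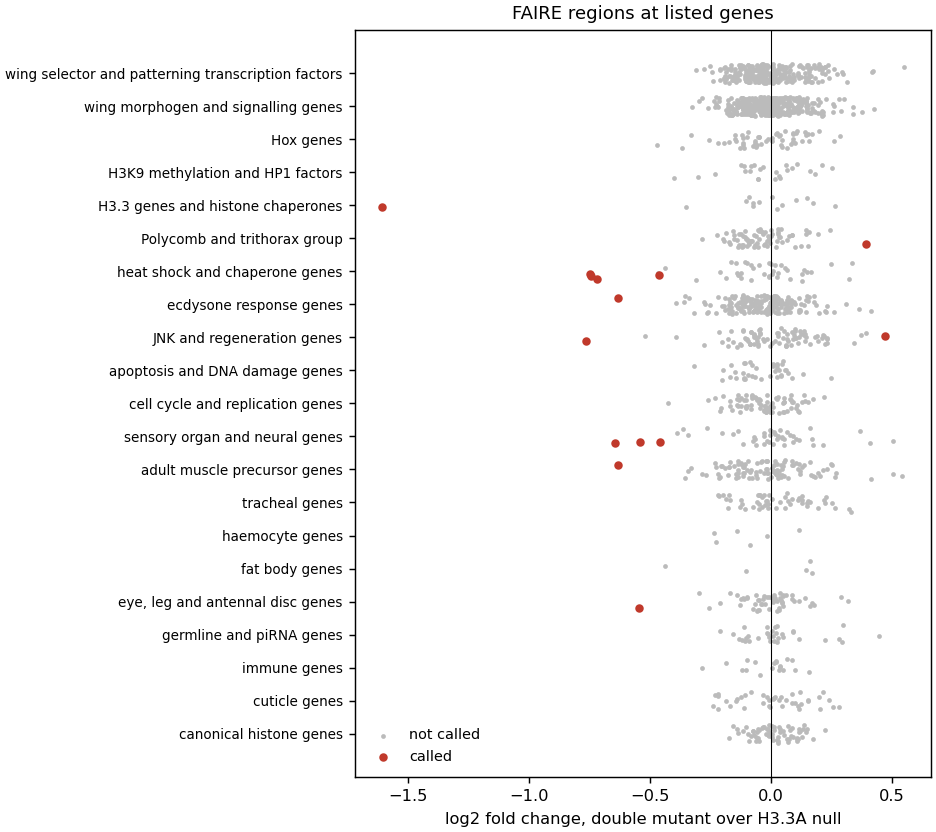
Log2 fold change of the double mutant over the H3.3A null for each region assigned to a listed gene, 1 line of points per list, with called regions in red and the rest in grey. The grey points lie around 0, and the red points are few: Caf1-180 at -1.61 stands furthest out.

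RNA in larvae was set beside the regions for loci that they overlap. The RNA tables compare H3.3-K9R_H3.2-HWT with HWT in another stage and tissue, and HWT keeps H3.3A, so they do not isolate K9R from H3.3A loss. Of 7634 loci tested there 329 were called (4.31%), 203 higher (2.66%) and 126 lower (1.65%). On the chromosome arms, loci under higher FAIRE regions numbered 47, of which 6 had higher and 1 lower RNA (14.9%). Under lower regions there were 68 loci, of which 8 had higher and 3 lower RNA (16.2%), and of the 4956 loci under any region of the arms 2.36% were called. RNA was thus more often higher than lower under regions of either direction, without a test. Hsp70Bb and Hsp70Bbb had lower RNA (log2 fold changes of -1.11 and -1.12 in the authors' deposited table) and lower FAIRE signal. Parp1, the poly(ADP-ribose) polymerase gene in the heterochromatin of 3R, had RNA at -0.65 and a region at -0.70 in the authors' deposited tables. At plh the RNA was 0.80 and both called regions were higher, at 0.38 and 0.43, in the authors' deposited tables. The locus over the end of chromosome 4 (chr4:1278677-1296532), which the tables leave without a gene name, went the other way, with RNA at 0.90 and its 7 called regions between -2.19 and -0.61 in the authors' deposited tables. So did the 2R locus near TpnC41C, with RNA at -0.45 in the authors' deposited table and its regions higher.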

How the data were processed

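The members and gene lists were chosen with earlier results of these data known. Per the submitters' processing notes, Bowtie2 2.3.2, SAMtools 1.5, MACS2, bedtools and DESeq2 were used with dm6; TopHat2 2.1.1 and Cufflinks 2.1.1 are also listed there. Libraries were made with a ThruPLEX DNA-seq kit, per the labels. The deposited tables give, per region, a mean normalised signal over libraries, a log2 fold change with its standard error as deposited by the authors, a Wald score deposited with it, and a p-value and adjusted p-value deposited by the authors. No counts per library are used here, so depth per library is unknown, no replicate SD is given and precision rests on the deposited standard errors. The adjusted p-values equal a Benjamini-Hochberg adjustment over all 19733 regions; 5 regions have none. Folds are read as deposited, and whether they were shrunk is not given in the sources used here.

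Python 3.11.15 with pandas 2.3.3, numpy 2.4.6 and scipy 1.17.1 was used. Deposited region starts count from 0 and are given here from 1. A region was assigned to the gene it overlaps or else the nearest, from RefSeq's Release 6 gene table. Pericentromeric sequence began at 23 Mb on X and 3L and at 22 Mb on 2L, and ended at 5.4 Mb on 2R and at 4.6 Mb on 3R. Named regions were the 12 of smallest adjusted p and the 5 of largest fold in each direction, those at His3.3A and His3.3B, up to 4 called per list or else the 1 of smallest p, and the 6 of smallest adjusted p for the difference; runs, lncRNA:flam, east, Vps24, Cyp6a8, Parp1 and plh were picked after their values were seen. Alternatives varied thresholds, filters, centring, boundaries, chromosomes and gene assignment. Planned motif counts in promoters were not analysed here.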

Additional observations from a re-analysis of the deposited data

Results flagged for a closer look

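The K9R fold change without H3.3A differed from that with H3.3A, by the test of the difference itself, at 957 regions. A departure of WT alone from the mutant genotypes would also pass this test. The 6 regions with the smallest adjusted p were picked out by that test. Near TpnC41C on 2R, the regions chr2R:5049137-5051810 and chr2R:5055148-5056726 had differences of 4.63 and 3.95 on the log2 scale. They were higher in the double mutant over the H3.3A null and lower in H3.3B-K9R discs over WT. On the scaffold Un_DS483770v1 a region had a difference of -4.83, at -1.18 in the double mutant over the H3.3A null and 3.66 in H3.3B-K9R over WT in the authors' deposited tables. On the X, nAChRalpha3 had a difference of -6.40 and a region 53582 bases from SteXh:CG42398 (chrX:55762-57526) one of -4.47. Near CG9380 on 2R (chr2R:25268594-25272227) the difference was -4.04. In these last 3 and the scaffold region the double mutant, the H3.3A null and H3.3B-K9R discs all lay above WT, by 2.43 or more on the log2 scale in the authors' deposited tables.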

How the results depend on the processing

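Requiring an absolute log2 fold change of at least 1 left 315 called regions, 188 higher and 127 lower. Adjustment over regions outside the X and 2L gave 782, with 369 higher. The next 2 alternatives were added after seeing the data. Limited to the 2R, 3L and 3R arms, 47 were called, 19 higher and 28 lower, so that 40.4% were higher, against 57.1% of all calls. Counting neighbours within 20 kb once gave 585, 275 higher and 310 lower (47.0% higher). The other thresholds, filters and centring kept the counts, the 957 differences and the 575 shared calls within 1.5 times. The pericentromeric share fell to 12.0% with boundaries 1 Mb nearer the centromere, which drops the X, and the X arm's ran from 6.95% to 13.2% with the boundary 1 Mb into the arm or towards the centromere. All 126 recomputed values of the 63 named regions kept their call. Many of these regions were picked for small p-values or large folds, so this says little about calls near the threshold. With regions required to overlap the gene, the list of H3.3 genes and histone chaperones and the JNK list had 0 called. No paired analysis was possible because the tables hold no values per library, and leaving out single replicates was not run for the same reason.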

Other observations

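Among scaffolds, 308 of the 647 with a tested region had at least 1 called. On Un_CP007120v1, 37 of 38 regions were called, 34 lower and 3 higher, with a median of -0.83 and medians over WT of -0.43 in the double mutant and 0.39 in the H3.3A null. The 12 regions of a run on Y_CP007111v1_random were all higher (median 1.21), with medians over WT of 1.92 in the double mutant, 0.78 in the H3.3A null and 2.09 in H3.3B-K9R discs. Of 116 regions inside Myo81F, a myosin gene embedded in pericentromeric 3R, 13 were higher and 4 lower, with a median of 0.22. Over all of pericentromeric 3R 37 of 358 regions were called (10.3%), with a median of 0.14. DIP-lambda, a cell-surface protein gene in pericentromeric 2R, had 4 regions higher and 1 lower of 39, beside 41 of 387 (10.6%) called in pericentromeric 2R. The counts of pericentromeric 3R and 2R include the regions of these genes, and whether either gene departs from the sequence around it was not tested. Over all regions 6.50% were called.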
